A study of Rattus norvegicus with 16 samples.

Results

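Gene expression in the hippocampus of injured rats that received JM6 (TBI+JM6) was compared with that of injured rats without drug (TBI). The 6 arrays titled as TBI+JM6 or as traumatic brain injury alone, 3 of each, were taken from 16 arrays in all. Every rat was an adult male Sprague-Dawley rat. TBI rats had a severe fluid percussion injury, in which a pulse of fluid deforms the exposed brain. TBI+JM6 rats had the same injury and 400 mg/kg JM6 by oral gavage, and whole hippocampi were taken 24 h later. The other groups, used here as reference, were 3 Naive rats without surgery or drug, 2 Sham rats prepared for injury but not injured, 3 injured rats given 250 mg/kg PMI-006 by gavage (TBI+PMI) and 2 injured rats given 33 ug/kg estradiol (TBI+E33). Each array held RNA from 1 rat. Whether the TBI rats received vehicle is not given in the sources used here. The question was which genes and gene groups differed between TBI+JM6 and TBI.

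The kynurenine pathway breaks down tryptophan. Kynurenine 3-monooxygenase (KMO) sends kynurenine towards quinolinic acid, an agonist of NMDA glutamate receptors, while kynurenine aminotransferases convert it to kynurenic acid, which blocks those receptors. JM6 was developed to inhibit KMO in the blood and so raise kynurenic acid. Severe brain injury brings glutamate release, activation of astrocytes and microglia, and entry of blood cells and plasma into the tissue.

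The values are log2 signals of single-colour Agilent arrays after quantile normalization, which makes the distribution of signals equal on all arrays, so that a difference of 1 is a 2-fold difference in signal and every difference is relative to the other probes. All 3 TBI+JM6 arrays were scanned in 1 session with the other drug groups, and all 3 TBI arrays in another session with Naive and Sham. No slide held both TBI and TBI+JM6. Drug treatment and scanning session therefore cannot be told apart in the comparison of TBI+JM6 with TBI. Session also differed in every comparison of TBI+JM6 with Sham or Naive below, whereas TBI and Sham shared a session. The TBI arrays had 16567 to 18221 probes well above background and the TBI+JM6 arrays 22063 to 25031, and the part of this gap in the differences below was not tested. RNA was amplified with either of 2 kits, and which rat had which kit is not given in the sources used here. Whole-tissue signals also cannot tell fewer cells of a type from less RNA per cell. Defining markers of neurons were bright, with a median over 15 markers of 11.67 to 12.31 in TBI and 12.32 to 13.02 in TBI+JM6, and 14 of 15 markers of the dentate gyrus and CA fields of the hippocampus could be tested.

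Of 22779 probes tested, 6197 (27.2%) differed between TBI+JM6 and TBI by the limma fit over all 16 arrays at a Benjamini-Hochberg adjusted p under 0.05. They split into 3157 higher (13.9%) and 3040 lower (13.3%) in TBI+JM6. The median difference over all tested probes was 0, with quartiles of -0.38 and 0.52. With the brightest probe taken for each of 13844 genes, 1438 genes were higher (10.4%) and 2121 lower (15.3%), 25.7% in all. The values of the 2 groups did not overlap for 41.9% of the probes and 41.0% of the genes. The comparison thus had a high background, against which each gene group below is read. Leaving out TBI rat 3 lowered the count to 3923 probes, and leaving out TBI+JM6 rat 3 lowered it to 3988. A fit on the 6 arrays alone called 2935. Quantile normalization leaves no common shift between arrays, whereas the percentile scaling of the study's methods raised the median of all tested probes by 1 log2 unit in TBI+JM6 and called 15935 probes higher and 40 lower. Centred on that median, the same scaling called 5305 higher and 5653 lower. A percentile over all probes gave a shift of 0.21, with 6655 higher and 3335 lower. Higher and lower therefore mean relative to all tested probes throughout.

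Against the other drug groups the picture was different. No probe differed between TBI+JM6 and the mean of TBI+PMI and TBI+E33 in the limma fit (0 called, 0.0%, lowest adjusted p = 0.654), and 743 probes (3.26%) had an unadjusted p under 0.05. The methods' percentile scaling called 3 probes, and leaving out TBI+PMI rat 3, TBI+JM6 rat 1 or TBI+JM6 rat 3 gave 10, 4 and 2. The 95% confidence interval of this difference lay within 1 log2 unit of 0 for 16495 probes (72.4%). This bounds, for these probes, the difference from the mean of the other 2 drug groups, not from each of them. For the rest a difference of more than 2-fold was not excluded by the interval. Direct comparisons with each drug also gave no call. The lowest adjusted p was 0.122 against TBI+PMI and 0.167 against TBI+E33. The interval lay within 1 log2 unit of 0 for 64.6% of probes against TBI+PMI and 62.3% against TBI+E33.

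Each array can be placed on the line from the mean of TBI, set at 0, to the mean of TBI+JM6, set at 1, over the 6050 called probes with a value on every array. TBI+E33 rats lay at 0.95 and 0.96 and TBI+PMI rats at 0.77, 0.78 and 0.86. Naive rats lay at 0.01, 0.03 and 0.06, and the Sham rats, which were scanned with TBI, at 0.23 and 0.28. The plot of array positions shows both drug groups close to TBI+JM6, and Sham between Naive and the drug groups. These positions are a description, since TBI and TBI+JM6 defined the line.

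**Figure D1:**
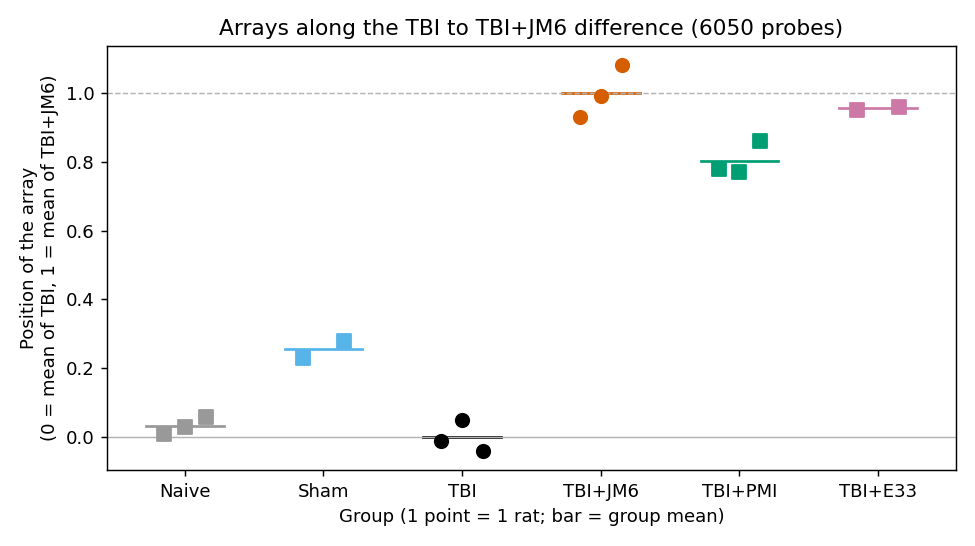
Position of each of the 16 arrays on the line from the mean of TBI (0) to the mean of TBI+JM6 (1) over 6050 probes called between these groups; each point is 1 rat, bars are group means, circles are the groups that define the line and squares the other groups. TBI+PMI and TBI+E33 lie between 0.77 and 0.96, Sham at 0.23 and 0.28, and Naive between 0.01 and 0.06.

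The largest rises with clear signal on all 6 arrays included a glial filament gene, genes of membrane trafficking and autophagy, and a potassium channel gene. Gfap encodes the intermediate filament of astrocytes, which rises in reactive gliosis. Its log2 signal was 12.52, 12.86 and 12.77 in the TBI rats and 15, 14.83 and 15.15 in the TBI+JM6 rats. Non-overlap of the groups was part of the rule that chose these genes. The difference was 2.28 ± 0.37 (SE, limma adjusted p = 0.0018), or 4.84-fold. Naive rats had 10.28 to 10.38, Sham rats 12.89 and 11.52, TBI+PMI rats 13.71, 14.14 and 15.29, and TBI+E33 rats 14.81 and 14.90. Gfap was thus higher in all 3 drug groups than in TBI, and the interval of the difference between TBI+JM6 and the other drugs was -0.36 to 1.11. The first 30 of the 60 bases of its probe, at chr10:92060835-92060894 on the minus strand of rn4, are shown to identify the sequence measured. The exon or UTR in which the probes lie was not analysed here.
Gfap probe: agcaagacaaacattcagacagaaaggaaa

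Tmsb10, which encodes an actin-binding thymosin, also stood well above Sham. It read 8.79, 9.60 and 9.56 in TBI and 11.12, 11.76 and 11.86 in TBI+JM6, a difference of 2.26 ± 0.27 (limma adjusted p = 0.000501). Sham rats had 8.05 and 8.47, which gave a difference of 3.32 between TBI+JM6 and Sham (adjusted p = 0.000124). Scanning session differed between these groups as well. TBI+PMI rats had 10.72 to 11.40 and TBI+E33 rats 11.78 and 11.70, so that every drug-treated rat was above every rat without drug.

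In most of the other large rises Sham rats were also high. Canx, which encodes the chaperone calnexin of the endoplasmic reticulum, read 7.57, 6.35 and 6.54 in TBI, 9.35, 9.55 and 9.44 in TBI+JM6, and 9.05 and 9.17 in Sham. The difference from TBI was 2.63 ± 0.27 (limma adjusted p = 0.000307), and that from Sham was 0.34 (adjusted p = 0.434). Naive rats, at 6.34 to 6.76, were near TBI. Cbx6, a Polycomb group gene, read 8.84, 7.43 and 7.56 in TBI, 10.27, 10.30 and 10 in TBI+JM6 and 9.83 and 9.76 in Sham, a difference of 2.25 ± 0.33 from TBI (adjusted p = 0.00112). Ormdl3, a regulator of sphingolipid synthesis, read 7.72, 7.51 and 7.85 in TBI, 10.13, 10.01 and 10.27 in TBI+JM6 and 10.12 and 9.75 in Sham, a difference of 2.45 ± 0.41 (adjusted p = 0.00188). In these 3 genes Sham lay closer to TBI+JM6 than to TBI. TBI+PMI rats had 8.49, 8.82 and 9.12 for Canx, 9.40, 9.47 and 10.21 for Cbx6, and 8.49, 7.98 and 9.95 for Ormdl3, with rat 3 the highest each time, as it was in 10 of the 10 largest rises. For Ormdl3, TBI+PMI rats 1 and 2 were near TBI and rat 3 near TBI+JM6. Rnd1, which encodes a small GTPase of the cytoskeleton, read 5.68, 6.89 and 6.35 in TBI and 7.97, 9.02 and 9.96 in TBI+JM6, a difference of 2.68 ± 0.54 (adjusted p = 0.00491), and Sham rats had 8.26 and 7.91. Sham was more than 1 log2 unit above TBI in 8 of the 10 largest rises. Of these 10, 4 were called higher in TBI+JM6 than in Sham (all tested genes, 8.89% higher). Against Naive 10 were called (all tested genes, either direction, 43.1%). The same TBI+JM6 arrays chose these genes, so these counts are a description and not support.

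Kcng1 encodes a modulatory subunit of voltage-gated potassium channels. It read 6.94, 6.30 and 6.48 in TBI and 9.49, 9.82 and 9.80 in TBI+JM6, a difference of 3.13 ± 0.46 (limma adjusted p = 0.0011). Naive rats had 8.18 to 8.52 and Sham rats 6.87 and 8.89, so that TBI was the lowest group and the Sham rats disagreed. With another background correction the difference was 1.85. A second Kcng1 probe differed by 0.98.

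2 of these genes had a second probe that did not move. Gabarapl1 encodes a protein of autophagosome formation, and Atp6v1a the catalytic subunit of the vacuolar proton pump. The Gabarapl1 probe at chr4:166810026-166810085 read 9.33, 10.12 and 10.01 in TBI and 11.88, 12.36 and 12.17 in TBI+JM6 (difference 2.32 ± 0.45, limma adjusted p = 0.00446), while that at chr4:166811168-166811227 differed by 0.09 (adjusted p = 0.702). The Atp6v1a probe at chr11:58174681-58174740 read 7.74, 6.46 and 6.66 in TBI and 9.38, 9.35 and 9.16 in TBI+JM6 (difference 2.34 ± 0.28, adjusted p = 0.000503), while that at chr11:58180098-58180157 differed by -0.16 (adjusted p = 0.325). The rise in these genes was therefore that of 1 probe. The positions are of rn4 on the plus strand, and the first 30 bases of each probe are shown so that the unlike probes can be told apart.
Gabarapl1 probe that rose: catgaggaagactattttctgtatgtggcc
Gabarapl1 probe with no call: tttgtcggcatcaggttctgggactttgaa
Atp6v1a probe that rose: agcagagacagataaaatcaccctgaaggt
Atp6v1a probe with no call: catcctgaacaatgaatagaagaggctata
Over all 585 called genes with more than 1 tested probe, 152 had another probe called in the same direction, 64 had one called in the opposite direction and 370 had no other probe called.

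The largest difference of all was that of Rpl19-ps25, a pseudogene of a ribosomal protein gene, whose signal may include other copies and is uncertain for that reason. It read 6.88, 7 and 7.25 in TBI and 14.10, 14.16 and 13.36 in TBI+JM6, a difference of 6.83 ± 1.41 (limma adjusted p = 0.0055). The signal took 2 levels across the series rather than following the groups. Both Sham rats (13.39 and 13.69), TBI+PMI rat 3 (14.08) and both TBI+E33 rats (14.24 and 13.37) were at the high level, and the Naive rats and TBI+PMI rats 1 and 2 were at 5.84 to 7.05. A second probe, which overlaps the first, differed by 5.41. Their first 30 bases, from chrX:93594337-93594396 and chrX:93594348-93594407 on the minus strand of rn4, share a run of bases, so they are not independent measurements.
Rpl19-ps25 probe: tggctgtggcctctcgtggatcagccatta
Rpl19-ps25 overlapping probe: acatagtggcctggctgtggcctctcgtgg

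**Figure D2:**
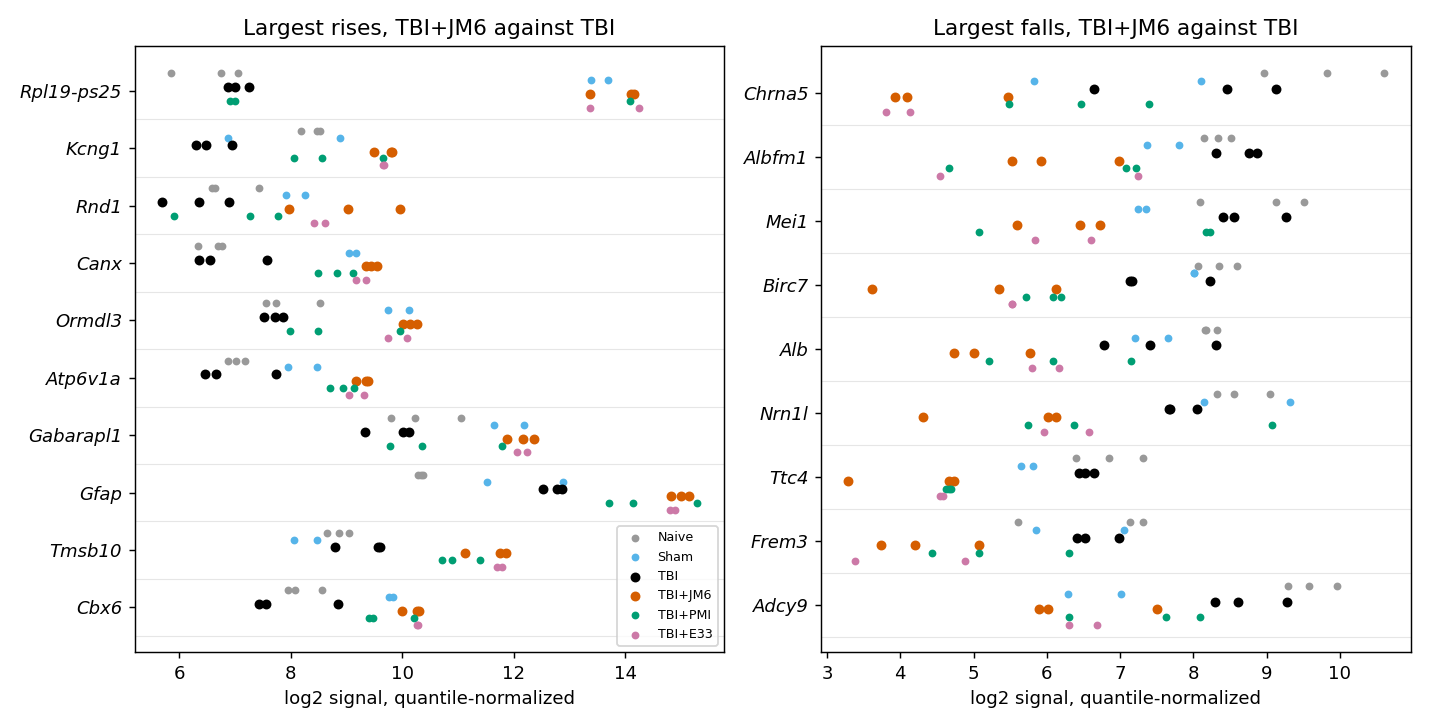
Log2 quantile-normalized signal of the 10 genes with the largest rise (left) and 9 of the 10 with the largest fall (right) in TBI+JM6 against TBI among called genes with signal above background on all 6 arrays; each point is 1 rat, coloured by group, and large points are TBI and TBI+JM6. Rpl19-ps25 has 2 separate levels, Gfap is highest in the drug groups, and for most rises the Sham points lie near TBI+JM6.

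The largest falls included a nicotinic receptor subunit, an adenylyl cyclase and albumin. Chrna5, which encodes the alpha5 subunit of nicotinic acetylcholine receptors, read 6.64, 9.13 and 8.46 in TBI and 3.93, 5.47 and 4.09 in TBI+JM6, a difference of -3.58 ± 0.77 (limma adjusted p = 0.00666). Naive rats had 8.96 to 10.60, Sham rats 5.83 and 8.11, TBI+PMI rats 5.48 to 7.40 and TBI+E33 rats 4.13 and 3.81, so the spread within groups was wide. With another background correction the difference was -1.68. Adcy9, an adenylyl cyclase gene, read 9.28, 8.30 and 8.61 in TBI and 7.5, 5.90 and 6.02 in TBI+JM6 (difference -2.26 ± 0.50, adjusted p = 0.00751), and 6.29 and 7.02 in Sham.

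Alb, the gene of serum albumin, read 8.31, 6.78 and 7.41 in TBI and 5, 5.77 and 4.74 in TBI+JM6, a difference of -2.33 ± 0.47 (limma adjusted p = 0.00489). Sham rats, at 7.21 and 7.66, and Naive rats were high as well, so Alb was lower in TBI+JM6 than in Sham too (-2.26, adjusted p = 0.01). Ttc4, whose product assists the heat shock chaperones, read 6.64, 6.52 and 6.44 in TBI and 4.73, 4.66 and 3.29 in TBI+JM6 (difference -2.31 ± 0.32, adjusted p = 0.000845), while its second probe differed by -0.15. Birc7, an inhibitor of apoptosis gene, read 8.23, 7.13 and 7.16 in TBI and 6.12, 5.35 and 3.61 in TBI+JM6 (difference -2.48 ± 0.50, adjusted p = 0.00491). Non-overlap was part of the rule for all of these genes. Alb, Ttc4 and Birc7 each had their lowest value in TBI+JM6 rat 3. The other falls among the 10 were Albfm1 (-2.51), Mei1 (-2.48), Nrn1l (-2.32) and Frem3 (-2.30), of which each lost its call without TBI+JM6 rat 3, at adjusted p = 0.0704, 0.0848, 0.133 and 0.0635. Albfm1 also lost its call without TBI rat 1, TBI rat 2 or TBI+JM6 rat 1, Nrn1l without any 1 TBI rat, and Mei1 and Frem3 without TBI rat 3.

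The signal of 537 genes was called higher and was well above background on all 3 TBI+JM6 arrays and on no TBI array, and that of 0 genes the other way round. For such genes no measured fold is given. A bound above 1 could be set for 254 of the 537, from the mean of the TBI+JM6 arrays over the mean, across TBI arrays, of the higher of the probe's own signal and the dimmest signal well above background. The largest bounds were those of Plekhh1 (at least 6.21-fold higher in TBI+JM6, from 3.59, 5.06 and 4.81 in TBI to 8.17, 8.48 and 7.58), Snrnp70, a component of the U1 spliceosome particle (at least 4.67-fold), Lrrc4, a postsynaptic adhesion gene (at least 4.38-fold), Elfn2 (at least 4.03-fold) and Mnda, a gene of myeloid cells (at least 3.66-fold). Adjusted p in the limma fit was 0.0421, 0.000503, 0.0148, 0.00279 and 0.0108. These genes were chosen for this pattern and passed the filter through groups in which they were high, so neither the p-values nor the count are given as support. The same holds for every gene below that was above background on no TBI array. A gene above background on some but not all TBI arrays also passed the filter through another group, so its p-value is not given as support. List counts of higher genes below include such genes. Sham rats were at 8.47 and 8.01 for Lrrc4 and at 7.66 and 7.33 for Elfn2, against 7.60 to 7.89 and 7.32 to 7.71 in TBI+JM6. Mnda was at 3.41 and 3.43 in Sham and at 7.32 to 7.51 in TBI+JM6. Plekhh1 lost its call without any 1 of the 6 rats. Without TBI rat 1 the measured difference of Mnda was 1.88 in place of 2.87. Each TBI+JM6 array had more probes above background than each TBI array, and the part of that in this count was not tested.

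Among the enzymes of the kynurenine pathway, the system that JM6 acts on, 9 of 13 listed genes were tested. None was higher and 2 were lower in TBI+JM6 (22.2% called, against 25.7% of all genes), with a median of -0.18. Aadat, which encodes the kynurenine aminotransferase II that makes kynurenic acid in brain, read 9.70, 9.38 and 9.30 in TBI and 8.56, 8.27 and 7.97 in TBI+JM6, with no overlap. The difference was -1.19 ± 0.19 (limma adjusted p = 0.00162). Aadat kept its call in the 16 alternatives read for it. These did not include the uncentred percentile scalings or the methods' t-test. Sham rats had 9.40 and 9.33, TBI+PMI rats 8.38 to 8.92 and TBI+E33 rats 8.69 and 8.81. Its probe lies within chr16:32845430-32846485 on the minus strand of rn4, a span longer than the probe itself, and begins with the bases below.
Aadat probe: ttactccagcgcagatggacttagtcttcc

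Kmo itself, the target of the drug, was dim. It read 4.47, 6.47 and 3.78 in TBI and 5.22, 4.10 and 3.58 in TBI+JM6, overlapping, with a difference of -0.61 ± 0.69 (limma adjusted p = 0.54). Only 1 TBI array and all 3 TBI+JM6 arrays were well above background. Haao, which makes the precursor of quinolinic acid, was also dim, at 5.13, 5.55 and 5.62 in TBI and 3.75, 3.70 and 3.62 in TBI+JM6 (difference -1.74 ± 0.39, adjusted p = 0.0076), with 1 and 2 arrays above background, and lost its call under a centred percentile scaling (adjusted p = 0.0919). The other 6 tested enzymes had no call. Differences were -0.61 for Qprt (adjusted p = 0.142), -0.18 for Kyat3, -0.06 for Kyat1 and 0.23 for Got2. Ido1 and Ido2 were above background on no TBI array (adjusted p = 0.145 and 0.712). Of 8 tested genes of kynurenine transport and kynurenic acid receptors, 1 was called (12.5%, against 25.7% of all genes). Slc7a5, a subunit of the amino acid transporter that carries kynurenine and tryptophan across the blood-brain barrier, read 9.31, 8.68 and 8.82 in TBI and 9.68, 9.89 and 9.63 in TBI+JM6 (difference 0.80 ± 0.19, adjusted p = 0.0104), with 9.45 and 9.61 in Sham.

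None of the acute injury genes tested was called lower in TBI+JM6 than in TBI, which does not show that none fell. Of 20 tested acute injury genes, 13 were higher in TBI than in Sham (all genes, 2.91%) and 16 were higher in TBI+JM6 than in Sham (8.89%). Only the first of these comparisons lay within 1 scanning session. Between TBI+JM6 and TBI, 2 were higher and 0 lower (10% called, against 25.7% of all genes), and the median difference was 0.63. Hspb1, a small heat shock protein of stressed glia, read 14.42, 15.17 and 15.51 in TBI and 14.63, 15.62 and 16.02 in TBI+JM6, against 9.98 and 10.73 in Sham. Lcn2, the iron-binding lipocalin of acute inflammation, read 12.15, 15 and 15.23 in TBI and 14.75, 13.89 and 13.09 in TBI+JM6, against 7.19 and 7.07. Timp1, a metalloproteinase inhibitor, read 11.24, 13.34 and 13.37 in TBI and 13.26, 13.25 and 13.54 in TBI+JM6, against 7.97 and 9.84. For these 3 genes the injured groups overlapped and both stood far above Sham. The differences between TBI+JM6 and TBI were 0.39 ± 0.44, -0.22 ± 0.72 and 0.70 ± 0.60 (limma adjusted p = 0.535, 0.844 and 0.408). Cd44, a hyaluronan receptor, differed by 0.37 ± 0.29 (adjusted p = 0.359), from means of 11.40 in TBI and 11.77 in TBI+JM6, and Cd14, the lipopolysaccharide co-receptor, by 0.82 ± 0.48 (adjusted p = 0.22).

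The 2 injury genes called were Socs3 and Msr1. Socs3, a feedback inhibitor of cytokine signalling, read 7.19, 7.12 and 6.78 in TBI and 7.91, 8.63 and 10.02 in TBI+JM6, a difference of 1.82 ± 0.48 (limma adjusted p = 0.0168) that was 1.24 without TBI+JM6 rat 3 (adjusted p = 0.0551) and 1.70 without TBI rat 3 (adjusted p = 0.0573). Sham rats had 5.05 and 5.51. Msr1, a scavenger receptor of macrophages, read 5.99, 7.93 and 7.87 in TBI and 9.60 and 9.56 in TBI+JM6 rats 1 and 3, the value of rat 2 having been dropped as an outlier spot. Its difference was 2.32 ± 0.55 (adjusted p = 0.0117). Without rat 3 the adjusted p was 0.0529, with 1 TBI+JM6 rat left that is assumed to vary like the other groups. The plot of injury genes shows these genes beside Hspb1, Lcn2 and Timp1 in all groups.

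Of 17 cytokine and chemokine genes, 7 were higher in TBI than in Sham (all genes, 2.91%) and 10 were higher in TBI+JM6 than in Sham (8.89%). Between TBI+JM6 and TBI 1 was higher and 1 lower (11.8% called, against 25.7% of all genes). Ccl2, the monocyte chemoattractant, read 11.36, 12.45 and 11.95 in TBI and 11.51, 11.57 and 13.45 in TBI+JM6, against 4.53 and 6.09 in Sham, and differed by 0.26 ± 0.73 (limma adjusted p = 0.815). Cxcl11, an interferon-induced T cell chemokine, was not well above background on any TBI array (2.90, 4.69 and 5.23) and read 6.88, 6.73 and 6.71 in TBI+JM6, at least 2.52-fold higher (adjusted p = 0.00518). It is the 1 higher gene of this list and passed the filter only through the drug groups, so it does not stand as support for a rise of the list. TBI+PMI and TBI+E33 rats had 6.57 to 7.06. Il1a, the alpha form of interleukin-1, read 6.40, 5.6 and 5.66 in TBI and 4.03, 3.90 and 5.37 in TBI+JM6 (difference -1.45 ± 0.38, adjusted p = 0.016). That call was lost without TBI rat 1, TBI+JM6 rat 1 or TBI+JM6 rat 2, at adjusted p = 0.0517, 0.0534 and 0.0621. Sham rats had 5.23 and 4.37.

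Markers of microglia and macrophages gave 2 lower and 0 higher of 17 (11.8% called, against 25.7% of all genes), with a median of -0.17. Against Sham, 6 were higher in TBI (all genes, 2.91%) and 7 in TBI+JM6 (8.89%). Itgam encodes CD11b, the protein that the OX-42 antibody detects on activated microglia. It read 10.16, 10.64 and 10.63 in TBI and 10.28, 10.24 and 10.14 in TBI+JM6, with Sham rats at 8.93 and 9.19. The difference between the injured groups was -0.26 ± 0.20 (limma adjusted p = 0.365), while both were higher than Sham, by 1.41 (adjusted p = 0.0121) and 1.16 (adjusted p = 0.00487). The 2 genes that fell were Trem2 and C1qb. Trem2, a microglial lipid receptor, read 11.11, 11.52 and 11.46 in TBI, 10.80, 10.53 and 9.99 in TBI+JM6 and 10.64 and 10.80 in Sham, a difference of -0.92 ± 0.21 (adjusted p = 0.00803). C1qb, a chain of the first complement component, read 14.36, 13.89 and 14.19 in TBI and 13.25, 13.60 and 13.12 in TBI+JM6, a difference of -0.82 ± 0.27 (adjusted p = 0.0412). The C1qb call was lost without TBI rat 1 or 3 or TBI+JM6 rat 1 or 3, at adjusted p = 0.093 to 0.124.

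Of 16 astrocyte genes tested, 2 were higher and 2 lower (median 0.11), a share of 25% against 25.7% of all genes. With Gfap, Stat3, a transcription factor that acts in reactive astrocytes and other cells, was higher, at 7.89, 8.33 and 8.49 in TBI and 9.15, 9.34 and 9.27 in TBI+JM6 (difference 1.02 ± 0.24, limma adjusted p = 0.0102). Sham rats had 6.25 and 6.80, so TBI was already above Sham by 1.71. Gjb6, the gap junction protein connexin 30 of astrocytes, was lower, at 11.24, 10.15 and 10.47 in TBI and 9.73, 9.91 and 8.17 in TBI+JM6 (difference -1.35 ± 0.47, adjusted p = 0.0496), and lost its call without TBI+JM6 rat 3 (-0.80, adjusted p = 0.182), TBI rat 1 (0.15) or TBI rat 3 (0.0907). Aldoc, a glycolytic enzyme of astrocytes, differed by -0.65 ± 0.19 (adjusted p = 0.0278), with adjusted p = 0.0874 without TBI rat 1, 0.0623 without TBI+JM6 rat 1 and 0.102 without TBI+JM6 rat 3. Interferon-stimulated genes gave 3 lower and 0 higher of 16 (18.8% called, against 25.7% of all genes). Their median was -0.35, and -0.36 against the other drugs. Gbp5, a guanylate-binding protein, read 6.72, 7.40 and 7.54 in TBI and 6.20, 6 and 5.48 in TBI+JM6 (-1.33 ± 0.25, adjusted p = 0.00372), and 6.58 and 6.86 in Sham. Stat2, which relays interferon signals, differed by -0.83 ± 0.19 (adjusted p = 0.00971). Ifit2 differed by -1.09 ± 0.35 (adjusted p = 0.037), and lost that call without any 1 rat other than TBI+JM6 rat 2 (adjusted p = 0.0565 to 0.119).

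**Figure D3:**
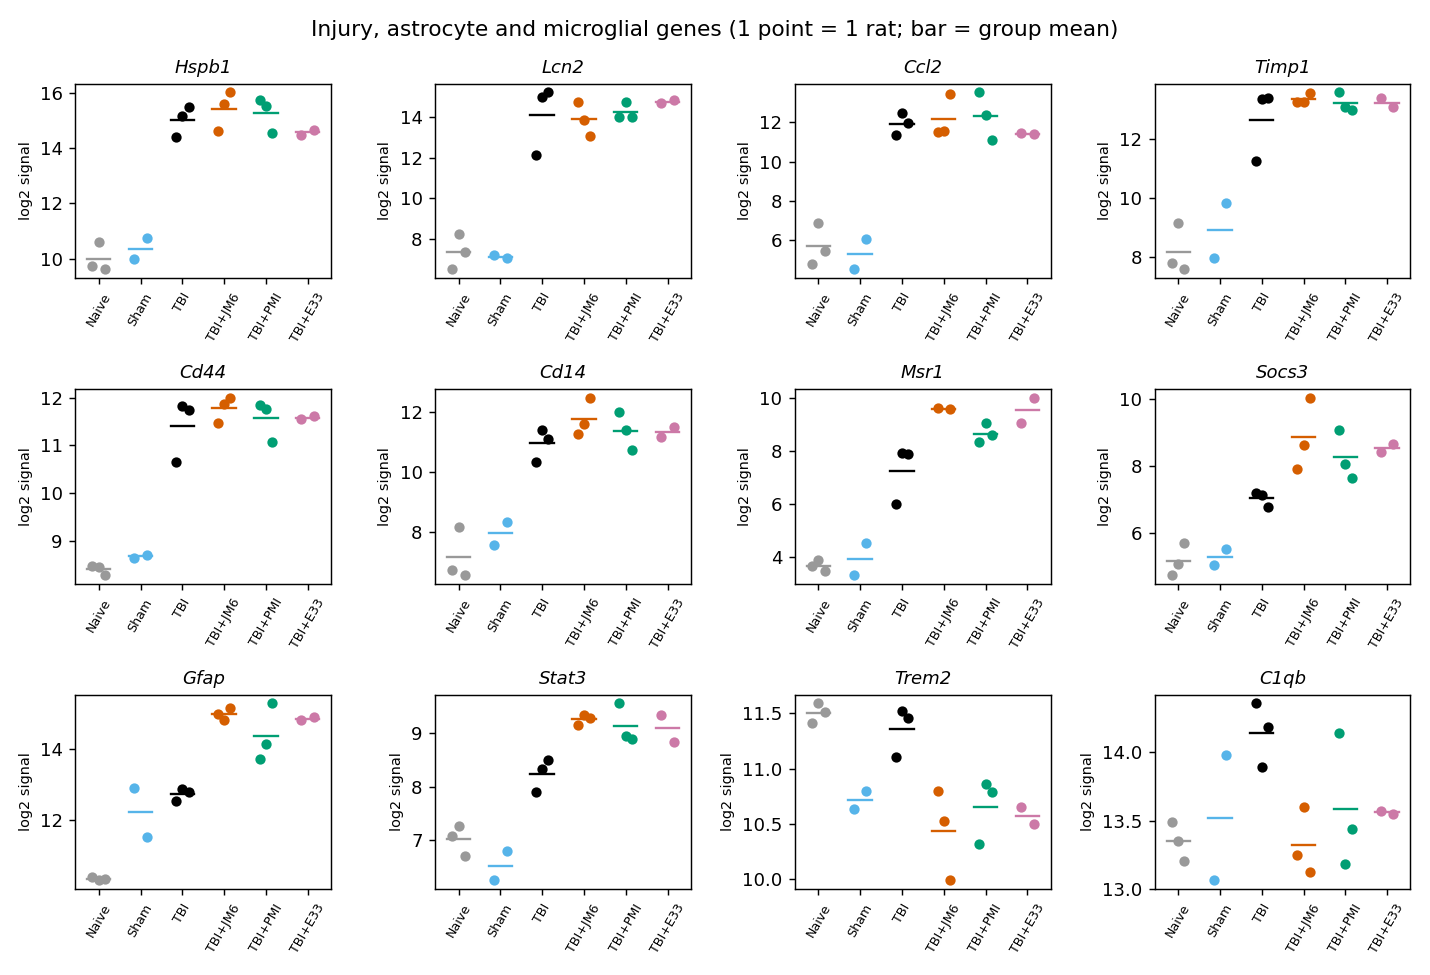
Log2 quantile-normalized signal of 12 injury, astrocyte and microglial genes in the 6 groups; each point is 1 rat and each bar a group mean, and the vertical axis of each panel spans the values of that gene and does not start at 0. Hspb1, Lcn2, Ccl2, Timp1, Cd44 and Cd14 are high in all injured groups with overlapping values, Gfap, Msr1, Socs3 and Stat3 are higher in the drug groups than in TBI, and Trem2 and C1qb have lower means.

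Lists of neuronal genes lay on both sides of the 25.7% called over all genes. GABA-A receptor subunits had 45.5% called, glutamate transport and metabolism 41.7% and G proteins 38.5%, while neuron markers had 13.3%, markers of the dentate gyrus and CA fields 14.3%, interneuron genes 17.6%, monoamine genes 9.09% and neurotrophins 0. These shares rest on few genes and were not tested against each other. Of 6 tested NMDA receptor subunits, 2 were higher in TBI+JM6 and 0 lower (33.3% called), and the median difference was 0.70. Grin1, the obligatory subunit, read 7.95, 7.10 and 7.16 in TBI, 8.27, 8.33 and 8.04 in TBI+JM6, and 8.03 and 8.43 in Sham, a difference of 0.81 ± 0.22 (limma adjusted p = 0.0177). Its call was lost without TBI rat 2, TBI rat 3 or TBI+JM6 rat 2, at adjusted p = 0.0614, 0.0692 and 0.0573, and its difference was 0.03 with another background correction. Grin2b, not above background in TBI, was higher in TBI+JM6 by at least 1.54-fold (adjusted p = 0.0267), a call that was lost without TBI rat 2, TBI+JM6 rat 1 or TBI+JM6 rat 3 (adjusted p = 0.0836, 0.0534 and 0.0882). Grin2b passed the filter through groups other than TBI, so its p-values are not given as support. Of 11 GABA-A receptor subunits, 4 were higher and 1 lower (median 0.67). Gabrb1 was lower, by -0.37 ± 0.11 (adjusted p = 0.0289), and lost its call without TBI rat 1 or 3 or any 1 TBI+JM6 rat (adjusted p = 0.0581 to 0.0791).

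Genes of synaptic proteins were read next. Dlg4 encodes PSD-95, the main scaffold of excitatory synapses. It read 8.63, 7.55 and 7.27 in TBI, 9.98, 9.96 and 9.94 in TBI+JM6 and 9.73 and 9.69 in Sham, with a difference of 2.15 ± 0.33 from TBI (limma adjusted p = 0.00124) and 0.25 from Sham (adjusted p = 0.643). TBI itself was below Sham by 1.89 (adjusted p = 0.0186), and Naive rats, at 7.79 to 8.32, were near TBI. Of 31 genes of synaptic vesicle release, 8 were higher and 1 lower (29% called, near the 25.7% of all genes), with a median of 0.28. The median level of this list averaged 10.70 in TBI+JM6, 10.59 in TBI+PMI and 10.56 in TBI+E33. It was 9.47 in TBI, 9.77 in Sham and 9.71 in Naive. The drug groups, scanned together, were thus alike and above the uninjured groups. Rims1, an active zone scaffold, read 8.09, 6.25 and 6.68 in TBI and 8.63, 8.62 and 8.34 in TBI+JM6 (1.53 ± 0.35, adjusted p = 0.00868). Syn2, a vesicle phosphoprotein, read 10.19, 8.88 and 9.17 in TBI and 10.83, 10.77 and 10.65 in TBI+JM6 (1.34 ± 0.28, adjusted p = 0.00553). Slc17a7, the vesicular glutamate transporter of hippocampal pyramidal and granule neurons, read 10.03, 8.51 and 9.35 in TBI, 10.76, 10.80 and 10.79 in TBI+JM6 and 10.55 and 10.61 in Sham (1.49 ± 0.30, adjusted p = 0.00503). In all 4 genes TBI rat 1 was the highest of the TBI rats and every TBI+JM6 rat lay above it. Among all genes, 41.0% had no overlap between these groups. Thy1, a neuronal surface glycoprotein, differed by 1.04 ± 0.18 (adjusted p = 0.00265). Napa, which helps to recycle the fusion machinery, was lower, by -0.89 ± 0.23 (adjusted p = 0.0149), and missed the threshold without TBI+JM6 rat 2 (0.057). The neuron markers as a list gave 2 higher and 0 lower of 15 (13.3% called), with a median of 0.29.

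G protein subunits and RGS proteins carry and end signals from receptors such as those of monoamines. Their genes gave 12 higher and 3 lower of 39 (38.5% called, against 25.7% of all genes), with a median of 0.42. Gnaz, an inhibitory alpha subunit of neurons, read 6.73, 5.48 and 5.75 in TBI, 7.97, 8.04 and 7.78 in TBI+JM6 and 7.79 and 7.41 in Sham (1.95 ± 0.29, limma adjusted p = 0.00111). Gna11, an alpha subunit that activates phospholipase C, read 7.38, 6.28 and 6.39 in TBI, 8.49, 8.64 and 8.63 in TBI+JM6 and 8.06 and 8.26 in Sham (1.91 ± 0.26, adjusted p = 0.000796). Both genes had no overlap between TBI and TBI+JM6, as had 41.0% of all genes, and both were near the Sham level in TBI+JM6. Rgs16, an inducible regulator that like Gnaz was above background on 2 of 3 TBI arrays, read 5.62, 5.45 and 4.66 in TBI and 6.47, 7.24 and 8.11 in TBI+JM6 (2.03 ± 0.39, adjusted p = 0.00403), and here Sham rats, at 5.85 and 5.72, were near TBI. The lower genes were Gnb3 (-1.72 ± 0.32, adjusted p = 0.00315, above background on 1 TBI and 2 TBI+JM6 arrays, and 0.125 under the centred percentile scaling), Gna14 (-1.03 ± 0.34, adjusted p = 0.0403) and Gng13 (-0.59 ± 0.17, adjusted p = 0.0272). Gna14 lost its call without any 1 rat other than TBI+JM6 rat 3, and Gng13 without TBI rat 1 or 2 or TBI+JM6 rat 1 or 3. Gnaz, Rgs16 and Gnb3 passed the filter through groups other than TBI, so their p-values are not given as support.

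Ion channel genes were called in both directions. Of 81 potassium channel genes, 11 were higher and 5 lower (19.8% called, against 25.7% of all genes). Of 23 sodium and calcium channel genes, 5 were higher and 3 lower (34.8%). Besides Kcng1, Kcnd3, a subunit of the A-type current, was at least 2.87-fold higher (limma adjusted p = 0.00558) and above background on no TBI array. Kcnd3 passed the filter through groups other than TBI, so its p-value is not given as support. Its relative Kcnd1 was lower, at 8.37, 8.52 and 8.77 in TBI and 7.97, 7.56 and 7.61 in TBI+JM6 (-0.84 ± 0.17, adjusted p = 0.0046). Scn1a, a pore-forming subunit, differed by -0.56 ± 0.15 (adjusted p = 0.0162), a call lost with another background correction (0.0524), with the trend on probe GC content removed (0.113) or without TBI+JM6 rat 1 (0.0517). Of 11 kainate and metabotropic glutamate receptors, 2 were higher and 1 lower (27.3% called, near the 25.7% of all genes). Grm5, a metabotropic receptor coupled to phospholipase C, was above background on 2 of 3 TBI arrays. It read 6.87, 4.78 and 6.49 in TBI and 8.22, 7.42 and 7.76 in TBI+JM6. The difference was 1.76 ± 0.47 (limma adjusted p = 0.0179), 1.55 without TBI+JM6 rat 1 (adjusted p = 0.0569) and 1.13 without TBI rat 2. Grm5 passed the filter through groups other than TBI, so its p-values are not given as support.

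Axon guidance genes steer growing axons and persist at adult synapses. Of 42 semaphorins, plexins, netrins and slits, 8 were higher and 6 lower (33.3% called, against 25.7% of all genes), with a median of 0.09. Unc5b, a netrin receptor, reached at least 2.61-fold more in TBI+JM6, no TBI array having signal above background (limma adjusted p = 0.00117). It passed the filter through groups other than TBI, so this p-value is not given as support. Sema7a, a membrane-anchored semaphorin, read 5, 5.45 and 4.65 in TBI and 6.48, 7.12 and 7.24 in TBI+JM6 (1.91 ± 0.35, adjusted p = 0.00321). Only 1 TBI array was above background, so Sema7a too passed the filter through other groups, and its p-value is not given as support. Plxnb3, a plexin of oligodendrocytes, read 8.95, 8.77 and 8.91 in TBI, 7.92, 7.40 and 7.13 in TBI+JM6 and 8.80 and 8.60 in Sham (-1.39 ± 0.21, adjusted p = 0.00127), so that it was also below Sham, by 1.21 in size (adjusted p = 0.00511). Of 16 ephrins and Eph receptors, 1 was higher and 2 lower (18.8% called, against 25.7% of all genes), with a median of -0.31.

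**Figure D4:**
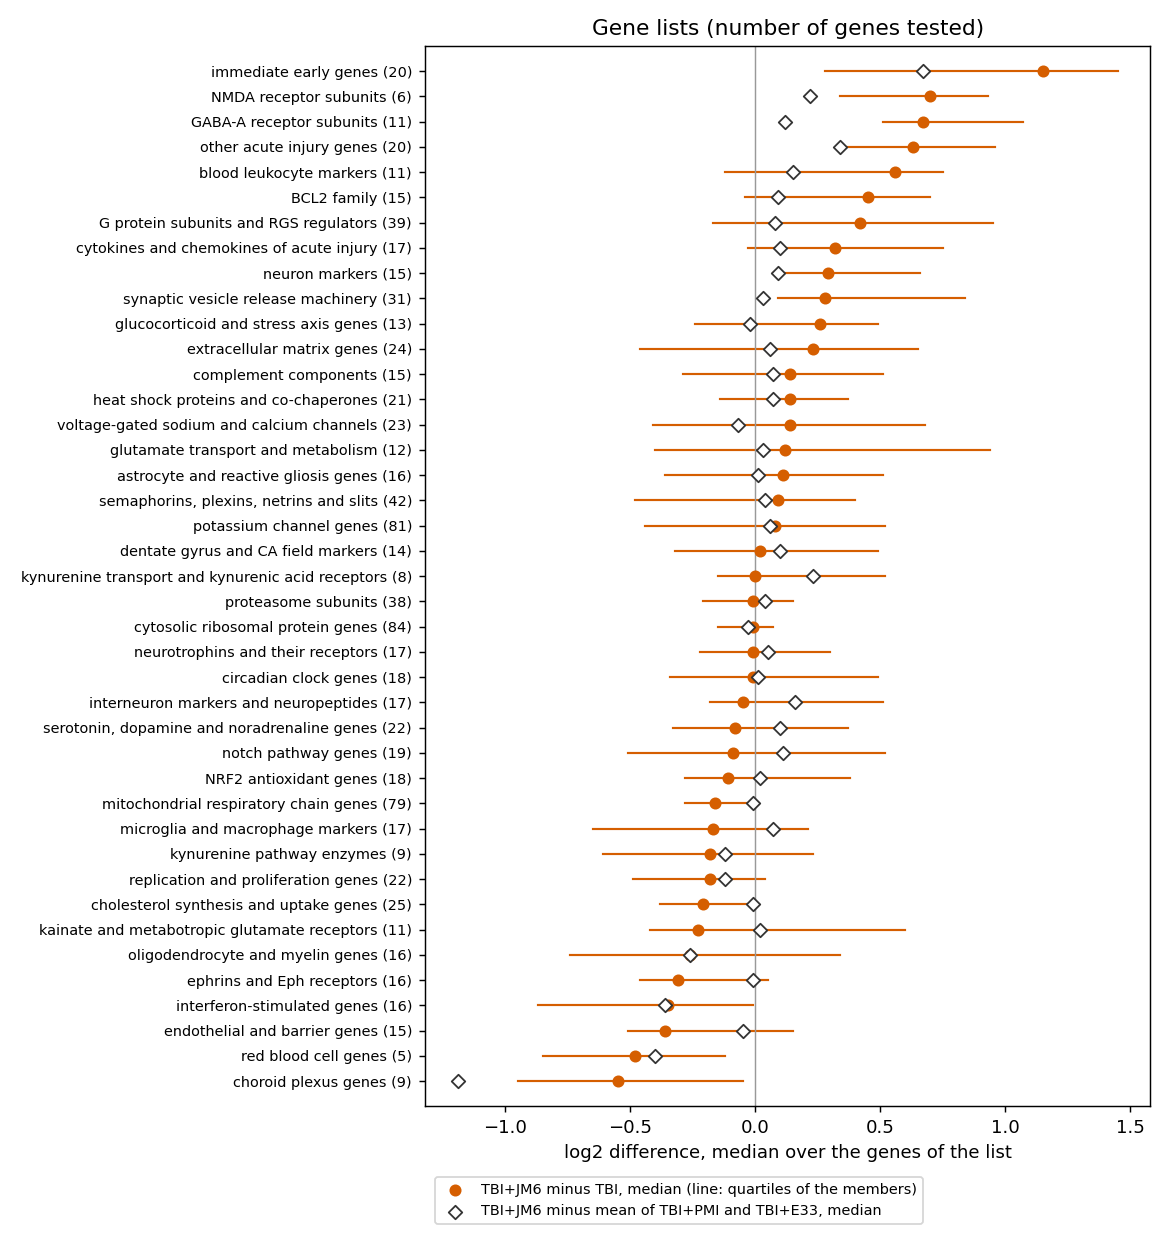
Median log2 difference over the tested genes of each of 41 lists for TBI+JM6 minus TBI (filled circles, with a line from the lower to the upper quartile of the members) and for TBI+JM6 minus the mean of TBI+PMI and TBI+E33 (open diamonds). Immediate early genes, NMDA and GABA-A receptor subunits and acute injury genes have the highest medians against TBI (0.63 to 1.15), and against the other drugs most lists lie near 0.

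The list with the highest median, immediate early genes, rested on 1 rat. These genes, among them Fos, Arc and Npas4, are switched on within minutes of neuronal activity. The median difference over 20 genes was 1.15, but 0 were called higher and 1, Homer1, was called lower (-0.57 ± 0.17, limma adjusted p = 0.0267). Without TBI+JM6 rat 3 the median was 0.03. Fos read 8.59, 9.05 and 8.41 in TBI and 8.05, 8.32 and 13.09 in TBI+JM6. Arc read 10.58, 9.42 and 10.30 in TBI and 9.97, 10.29 and 14.73 in TBI+JM6. Npas4 read 4.27, 2.42 and 2.23 in TBI, where no array was above background, and 4.18, 3.14 and 11.66 in TBI+JM6. The high values were all those of rat 3, and rats 1 and 2 were within the range of TBI or near it. Rat 3 was the highest TBI+JM6 rat in 20 of the 20 genes (32.8% of all tested probes), with a median gap of 2.39 log2 units to the next. TBI+PMI rat 1 was likewise the highest of its group in 20 of 20, with Fos at 11.08 against 8.44 and 7.77. Homer1, measured here by 1 probe, was lower in all 3 TBI+JM6 rats, and lost its call without TBI rat 3 (-0.44, adjusted p = 0.105), TBI+JM6 rat 1 (0.0837) or TBI+JM6 rat 2 (0.0974).

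**Figure D5:**
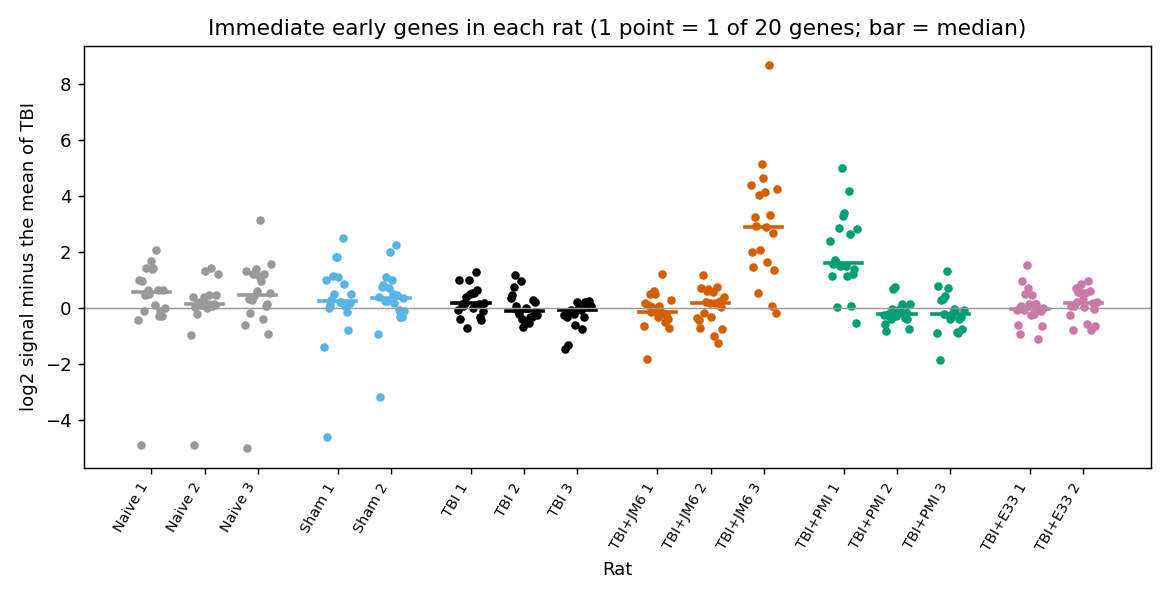
Log2 signal of 20 immediate early genes in each rat minus the gene's mean in TBI; each point is 1 gene and each bar the median over genes. TBI+JM6 rat 3 and TBI+PMI rat 1 lie above the other rats of their groups, while TBI+JM6 rats 1 and 2 lie around 0.

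Many of these genes are known targets of CREB, a factor that binds the cyclic AMP response element TGACGTCA, a palindrome that reads the same on both strands. Among 14 of the 20 genes with a RefSeq promoter of the GRCr8 build (250 bases before to 50 after the gene start), 4 (28.6%) held this 8-base element, against 612 of 33469 promoters (1.83%). A second sequence searched for, the CArG box, was held by 1 of the 14 (7.14%), against 548 of 33469 promoters (1.64%). Fos, Arc and Npas4 were not among the 4 genes with the cyclic AMP element. A match is a description of the sequence, not a measured binding site. The 30 bases around each element are shown, 5' to 3' on the gene's strand, with the element in capitals, for Dusp1 (chr10:17184718-17184747, plus strand), Btg2 (chr13:48087873-48087902, minus), Jund (chr16:18769974-18770003, minus) and Ier2 (chr19:40399296-40399325, plus).
Dusp1: ggcagggcgggTGACGTCAccacccggtca
Btg2: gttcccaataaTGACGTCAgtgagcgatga
Jund: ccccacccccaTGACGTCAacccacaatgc
Ier2: tggcgtttcagTGACGTCActcttactcta

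Neuropeptide and interneuron genes gave 3 higher and 0 lower of 17 (17.6% called, against 25.7% of all genes), with a median of -0.05. Sst, the peptide somatostatin of dendrite-targeting interneurons, read 8.77, 8.68 and 8.90 in TBI, 9.46, 10.74 and 10.14 in TBI+JM6 and 8.60 and 9.04 in Sham (1.33 ± 0.29, limma adjusted p = 0.00749). TBI+E33 rats had 10.33 and 10.71, and TBI+PMI rats 8.73, 8.97 and 9.48. Vgf, an activity-regulated secreted peptide precursor, read 11.56, 11.50 and 11.54 in TBI and 11.78, 12.81 and 14.01 in TBI+JM6 (1.33 ± 0.43, adjusted p = 0.0388), and 0.76 without rat 3 (adjusted p = 0.123). It also lost its call without any 1 TBI rat or TBI+JM6 rat 2 (adjusted p = 0.0705 to 0.088). Gad2, a GABA-synthesizing enzyme, differed by 0.70 ± 0.21 (adjusted p = 0.0269), and by 0.49 without TBI+JM6 rat 3 (adjusted p = 0.102), with the call also lost without TBI rat 1, TBI rat 2 or TBI+JM6 rat 2. Of 17 neurotrophin and receptor genes 0 were called, with a median of -0.01.

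The BCL2 family, which holds genes that block and genes that promote apoptosis, gave 2 higher and 0 lower of 15 (13.3%, against 25.7% of all genes), with a median of 0.45. Mcl1, which blocks apoptosis, read 8.32, 8.49 and 7.68 in TBI and 9.14, 9.32 and 10.14 in TBI+JM6 (1.37 ± 0.30, limma adjusted p = 0.00764), with 7.78 and 7.84 in Sham. Bid, which promotes apoptosis, read 7.21, 7.02 and 7.25 in TBI and 7.68, 8.17 and 7.84 in TBI+JM6 (0.73 ± 0.14, adjusted p = 0.00372), with 7.02 and 7.10 in Sham. In a fit on the 6 arrays alone neither passed (adjusted p = 0.0512 for Mcl1 and 0.051 for Bid).

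Nuclear genes of the mitochondrial respiratory chain gave 12 lower and 1 higher of 79, with a median of -0.16. The share called was 16.5%, below the 25.7% of all genes, and the share lower was near the 15.3% of all genes. Most of these falls were small. Ndufb10, a subunit of complex I, read 13.81, 13.74 and 13.94 in TBI and 12.99, 13.18 and 13.13 in TBI+JM6 (-0.73 ± 0.17, limma adjusted p = 0.0106). Ndufa7, of the same complex, read 10.33, 10.26 and 10.65 in TBI and 9.54, 9.79 and 9.71 in TBI+JM6 (-0.73 ± 0.15, adjusted p = 0.00493). Uqcrq, of complex III, had the largest fall, from 6.30, 5.89 and 6.42 to 4.33, 4.56 and 4.35 (-1.79 ± 0.22, adjusted p = 0.000565), with Sham rats at 5.23 and 4.50. Atp5f1b, of the ATP synthase, was higher (0.65 ± 0.12, adjusted p = 0.00373), and did not pass under a centred percentile scaling (0.259). Cytosolic ribosomal protein genes had few calls, with 1 higher and 2 lower of 84 (3.57% called) and a median of -0.01.

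Markers of other cells that the tissue could hold were read for the whole lists. In each of these lists the share called was 20% or less, below the 25.7% of all genes. Oligodendrocyte genes gave 3 lower and 0 higher of 16, with a median of -0.26. Mog, a surface protein of myelin, read 13.03, 12.47 and 12.50 in TBI, 12.21, 11.47 and 11.26 in TBI+JM6 and 13.31 and 13.47 in Sham (-1.02 ± 0.26, limma adjusted p = 0.0146, and 0.0505 without TBI+JM6 rat 2 and 0.06 without rat 3). Endothelial and barrier genes gave 1 higher and 2 lower of 15, with Cdh5, the endothelial cadherin, at 0.96 ± 0.21 (adjusted p = 0.00696) and Tjp1, a tight junction scaffold, at -0.69 ± 0.12 (adjusted p = 0.0024). Blood leukocyte markers gave 1 higher and 0 lower of 11, and their median level was 4.87 to 6.13 in TBI and 6.10 to 6.40 in TBI+JM6. Red blood cell genes gave 0 calls of 5, at 7.51 to 9.07 and 6.85 to 8.18. Choroid plexus genes gave 0 calls of 9. Their median level was 4.61 to 5.56 in TBI and 4.77 to 4.86 in TBI+JM6, against 10.34 in Sham rat 1, 9.46 in Naive rat 2 and 10.84 in TBI+PMI rat 1. The part of these cells in the differences above was not tested.

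Of the remaining lists, genes of cholesterol synthesis gave 1 higher and 3 lower of 25. Sc5d, which acts late in that synthesis, read 9.03, 9.26 and 9.16 in TBI, 10.78, 10.99 and 10.82 in TBI+JM6 and 10.76 and 11.17 in Sham (1.71 ± 0.21, limma adjusted p = 0.000569), while Dhcr7, of the last step, differed by -0.68 ± 0.15 (adjusted p = 0.0083). NRF2 antioxidant genes gave 3 higher and 1 lower of 18. Keap1, the sensor that holds NRF2 in check, read 9.21, 8.73 and 8.63 in TBI, 10.16, 10.28 and 9.79 in TBI+JM6 and 10.06 and 9.96 in Sham (1.22 ± 0.24, adjusted p = 0.00479). Replication genes, of which 8 of 22 were higher in TBI than in Sham (all genes, 2.91%), gave 2 higher and 2 lower between TBI+JM6 and TBI. Notch pathway genes gave 0 higher and 3 lower of 19. Heat shock genes gave 0 higher and 2 lower of 21, proteasome genes 4 higher and 0 lower of 38, and extracellular matrix genes 4 higher and 1 lower of 24. The share called in these remaining lists was 9.52% to 22.2%, against 25.7% of all genes. None of the 41 lists had a member called between TBI+JM6 and the other drug groups (0 called in the limma fit), as above for all probes.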

How the data were processed

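The authors deposited Agilent Feature Extraction files of 16 single-colour arrays, with the processed intensity of each spot after background subtraction and detrending. The authors also deposited a matrix of the linear ratio of each probe to a reference percentile of its array, used here only as an alternative. Values here start from the deposited intensity. Control and outlier spots were left out and 42877 spots averaged into 30367 probes. Intensities were quantile-normalized and taken as log2. Of these probes 68.09% were named through RefSeq. The tested probes, 22779 in all, had a value in every group and, in 1 or more of the 6 groups, signal well above background on each array. Differences were tested with limma 3.58.1 in R 4.3.3 (lmFit and eBayes, all 16 arrays, 1 mean per group, two-sided) and adjusted over all tested probes by Benjamini-Hochberg, and an adjusted p under 0.05 was called. Each array was 1 rat. Tables and figures were made with Python 3.11.15, pandas 2.3.3, numpy 2.4.6 and matplotlib 3.10.9.

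In the lists and the gene counts a gene was read by its brightest tested probe. Among the largest rises and falls it was read by the probe with the largest difference of those that met the rule. Among the bounds it was read by the probe with the largest bound. Genes were named as the 10 largest rises and 10 largest falls among called genes that were above background on all 6 arrays and did not overlap (Akt, calpain, caspase and AMPA receptor genes left out), the 5 largest bounds, and members of 41 gene lists, up to 3 per direction. Further list members were named after their values were seen. Members and lists were chosen with earlier results of these data known, and S6 kinase genes taken in by a name pattern were removed from the ribosomal list after values were seen. Alternatives covered scaling, background correction, filters, GC content, slide, array weights, the replicate number, the methods' t-test and each array left out. Tested on simulated data in which 200 of 22779 probes changed, the comparison with TBI recovered 79% of 4-fold and 49% of 2-fold changes, with 4 false calls. The simulated data had independent noise, few changed probes and no difference between sessions or slides. They therefore cannot show how many calls of the real comparison come from the drug. The number of arrays limits the precision. The median half-width of the 95% confidence interval was 0.52 log2 units against TBI. Values of a few genes that the rule names are not reported here.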

Additional observations from a re-analysis of the deposited data

How the results depend on the processing

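Against the 6197 probes called between TBI+JM6 and TBI (3157 higher, 3040 lower), the methods' 75th percentile scaling called 15975 (15935 higher, 40 lower), the same scaling centred on the median of tested probes 10958 (5305 and 5653), a percentile over all probes 9990 (6655 and 3335), the 6 arrays alone 2935 (1726 and 1209), the methods' t-test after Benjamini-Hochberg 1050 (549 and 501), and a further limit of 2-fold 2864. With that limit the probes called higher in TBI+JM6 vs TBI were 1969 and the probes called lower in TBI+JM6 vs TBI were 895. With probes above background on all 6 arrays, 4870 of 15848 were called, 1880 of them higher. Counts within 1.5 times of the main one were 5819 with normexp background, 6150 with the authors' matrix, 6285 without the filter, 8008 with slide as a random block, 7274 with array weights, 6067 with the GC trend removed and 6734 by the methods' t-test before adjustment. Leaving out 1 array gave 3923 to 5892 in all, 2091 to 3102 higher and 1748 to 2790 lower, the lowest totals being without TBI rat 3 (3923) and TBI+JM6 rat 3 (3988). Against the other drug groups the count was 0 except with the methods' scaling (3) and on leaving out 1 array (0 to 10). With slide as a fixed block on the 8 drug arrays it was 0. The cause of these changes was not tested.

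Same-numbered TBI and TBI+JM6 rats deviated from their group means with correlations of 0.09, 0.053 and -0.046, so they shared only a number. A replicate block gave 5850 called probes against TBI and 0 against the other drugs, and 14 of 148 named genes lost their call under it. On the 6 arrays alone 72 of the 148 lost it, and 31 to 50 did when 1 array was left out. The 148 include genes without a call in the main fit, such as Kmo and Itgam, which had none to lose. The share lost among called genes was therefore somewhat higher. Named genes were not read under the methods' uncentred scaling, the percentile over all probes or the methods' t-test. The uncentred scaling called only 40 probes lower, so the named falls may not hold their direction under it. In the settings that were read, directions reversed only for kynurenine enzymes without a call. Kmo was 0.37 and Got2 -0.15 under the centred scaling, Kyat1 0.02 and Got2 -0.11 with normexp background, Kyat1 0.05 without TBI rat 1, Ido2 -0.14 and Kmo 0.18 without TBI rat 2, Ido2 -0.27 without TBI+JM6 rat 2, and Kyat3 0.03 without TBI+JM6 rat 3. With 1 array left out, Ido2 ranged from -0.27 to 1.23, Kmo from -1.17 to 0.18, Kyat1 from -0.18 to 0.05 and Kyat3 from -0.30 to 0.03. The cause was not tested. TBI arrays had 16567 to 18221 probes well above background and TBI+JM6 arrays 22063 to 25031, so fewer probes had a measured level in TBI.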

Other observations

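A few probes had 2 separate levels that cut across the groups. Over 21894 probes with a value on all 16 arrays, 16 had a correlation with the Rpl19-ps25 probe beyond 0.95 in size, 14 positive and 2 negative, and 4 of them spanned more than 3 log2 units. These counts include the overlapping Rpl19-ps25 probe (r = 0.996), which is not an independent measurement. The arrays share sessions and slides, so this is a description. Vegfb, a growth factor gene of the vascular endothelial family, ran opposite. It read 8.74 to 9.5 in TBI, 9.51 to 9.88 in Naive and 8.91 and 8.82 in TBI+PMI rats 1 and 2, but 3.36, 2.86 and 3.88 in TBI+JM6, 3.89 and 3.47 in Sham, 3.20 and 2.99 in TBI+E33 and 2.94 in TBI+PMI rat 3. Ormdl3 was among the probes that ran with Rpl19-ps25 (r = 0.958), with Abcf3 (0.962), Atf6b (0.968) and Ing4 (0.975).

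Spock2, a proteoglycan gene of the brain, had another split. It read 12.03, 12.37 and 11.93 in TBI+JM6 and 10.68 to 11.67 in TBI, and 11.92 and 11.80 in TBI+PMI rats 1 and 2, but 5.99 in TBI+PMI rat 3 and 5.79 and 5.91 in TBI+E33. It was called between TBI+JM6 and the other drug groups only without TBI+PMI rat 3 (difference 3.26; limma adjusted p = 0.000344).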
